A study of Rattus norvegicus with 9 samples.

Results

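The NMDA receptor subunit genes Grin1, Grin2a, Grin2b, Grin2c, Grin2d, Grin3a and Grin3b were followed across the OXT-treated VPA, vehicle-treated VPA and control groups in RNA of the dorsal hippocampus. They were chosen by gene symbol, as the complete family, with earlier results of these data known. They are 7 of the 18166 genes that the arrays measured under a single symbol. Each had 1 probe set, and 5 of the 7 had a mean log2 level over 6.6 in at least 1 group, the level the study used for its gene calls, which Grin2d and Grin3b did not reach. Grin3a reached that level in the VPA groups alone. Grin3a was higher in each VPA group than in the controls, by 0.92 on the log2 scale after OXT and by 0.87 after vehicle, with no overlap of the arrays. Grin2a was lower in both VPA groups, by 0.34 and 0.47 on the log2 scale. The other 5 genes did not reach an unadjusted p under 0.05 in either comparison with control, and none of the 7 reached it between the OXT-treated and vehicle-treated VPA groups. After adjustment over all probe sets no member passed, with the smallest adjusted p at 0.118 and 0.134 for Grin3a in the OXT-treated and vehicle-treated VPA groups.

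All 9 rats were male Sprague-Dawley rats whose RNA was taken at 8 weeks of age, on postnatal day 56, with 3 rats per group and 1 array per rat. The OXT-treated VPA rats were born to dams given a single oral dose of valproic acid (VPA, an antiepileptic drug) at 600 mg/kg in mid-gestation, and received oxytocin (OXT) intranasally at 12 μg/kg/d from postnatal day 21 to day 55. The vehicle-treated VPA rats had the same prenatal VPA and received vehicle over the same days. The control rats were born to dams without VPA and also received vehicle, so no group combined OXT with a control pregnancy. Prenatal VPA exposure is a rodent model of autism spectrum disorder (ASD), and the design asks what VPA exposure and OXT treatment did to expression in the hippocampus. No source ties a rat to its dam, of which there were 3 with VPA and 2 without, so p values treat littermates as independent.

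NMDA receptors are ion channels opened by glutamate at excitatory synapses, and they let calcium into the neuron when the membrane is depolarized and magnesium leaves the pore. In the hippocampus they are required for the common forms of long-term potentiation and depression. Every receptor holds GluN1, the product of Grin1, which binds the co-agonist glycine or D-serine. The GluN2 subunits, encoded by Grin2a to Grin2d, bind glutamate and set the kinetics of the channel, and in forebrain Grin2a gains on Grin2b during postnatal development. The GluN3 subunits, encoded by Grin3a and Grin3b, bind glycine instead of glutamate and lower the calcium flow of the channel. In rodent forebrain Grin3a is known for a peak of expression in early postnatal life.

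Values are log2 expression levels on each array, and probe sets are not compared with one another in level. The median of all probe sets was between 5.75 and 5.82 on every array. Groups were compared with limma over all 30429 probe sets, and a gene is counted as passing at an unadjusted p under 0.05. At an adjusted p under 0.05 (Benjamini-Hochberg over all probe sets), limma called 0 probe sets in the comparisons between single groups and 2 (0.00657%) with the 6 VPA arrays as 1 side, neither of them a member. The smallest adjusted p was 0.489 between the OXT-treated and vehicle-treated VPA groups, 0.0831 between OXT-treated VPA and control, and 0.0655 between vehicle-treated VPA and control. Markers of neighboring tissue set arrays apart within the VPA groups. The mean log2 level of 11 thalamus markers was 7.85 and 7.57 in OXT-treated VPA replicates 1 and 2 and 7.64 and 7.27 in vehicle-treated VPA replicates 1 and 2, against 6.45 and 6.25 in replicates 3 of those groups and 6.31 to 6.63 in control. Markers of the choroid plexus, the tissue that makes cerebrospinal fluid, had means between 6.06 and 8.87 in the OXT-treated VPA group, between 5.76 and 6.46 in the vehicle-treated VPA group and between 7.69 and 8.47 in control. In bulk tissue, fewer cells of a type and less RNA per cell cannot be told apart.

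Grin1, which encodes the obligatory subunit, had log2 levels of 9.67, 9.78 and 9.81 in OXT-treated VPA replicates 1, 2 and 3, of 9.84, 9.84 and 9.65 in vehicle-treated VPA replicates 1, 2 and 3, and of 9.94, 9.98 and 9.84 in control replicates 1, 2 and 3. The 3 OXT-treated arrays lay under the 3 control arrays, while 2 vehicle-treated VPA arrays reached the lowest control array. The difference from control was -0.17 (SE 0.09, adjusted p = 0.751) in the OXT-treated VPA group and -0.14 (SE 0.09, adjusted p = 0.649) in the vehicle-treated VPA group, and neither passed the test. With array weights the difference of the OXT-treated VPA group was -0.19 and reached an unadjusted p under 0.05 (adjusted p = 0.364). With the 6 VPA arrays as 1 side the difference was -0.16 (SE 0.08, adjusted p = 0.583), which did not pass, and it passed in 4 of 18 alternatives.

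Grin2a encodes GluN2A, a main glutamate-binding subunit of adult hippocampal neurons. Its log2 levels were 9.83, 9.97 and 9.94 in OXT-treated VPA replicates 1, 2 and 3, 10.01, 9.81 and 9.54 in the vehicle-treated VPA replicates, and 10.36, 10.33 and 10.08 in the control replicates. All 6 VPA arrays lay under the lowest control array, and vehicle-treated VPA replicate 3 was the lowest of all. The difference from control was -0.34 (SE 0.13, 95% interval -0.64 to -0.05, adjusted p = 0.590) in the OXT-treated VPA group, which is 1.27-fold lower. It was -0.47 (SE 0.13, 95% interval -0.77 to -0.17, adjusted p = 0.324) in the vehicle-treated VPA group, which is 1.39-fold lower. The difference in the OXT-treated VPA group no longer passed without control replicate 1 (adjusted p = 0.857), control replicate 2 (adjusted p = 0.795), OXT-treated VPA replicate 1 (adjusted p = 0.813) or OXT-treated VPA replicate 3 (adjusted p = 0.597), at -0.29, -0.31, -0.30 and -0.36 in that order.

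Grin2b encodes GluN2B, the other main glutamate-binding subunit of the forebrain. Its log2 levels were 10.38, 10.61 and 10.64 in OXT-treated VPA replicates 1, 2 and 3, 10.51, 10.60 and 10.51 in the vehicle-treated VPA replicates, and 10.81, 10.70 and 10.52 in the control replicates. The groups overlapped, with control replicate 3 in the range of both VPA groups. The difference from control was -0.13 (SE 0.10, adjusted p = 0.855) in the OXT-treated VPA group and -0.14 (SE 0.10, adjusted p = 0.726) in the vehicle-treated VPA group.

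Grin2c encodes GluN2C, a subunit best known from granule cells of the cerebellum. Its log2 levels were 7.87, 7.76 and 7.77 in OXT-treated VPA replicates 1, 2 and 3, 7.60, 7.73 and 7.63 in the vehicle-treated VPA replicates, and 7.95, 7.78 and 7.76 in the control replicates. The 3 vehicle-treated VPA arrays were the lowest of the 9, and the OXT-treated VPA arrays overlapped with control. Against control the difference was -0.03 (SE 0.08, adjusted p = 0.980) in the OXT-treated VPA group and -0.18 (SE 0.08, adjusted p = 0.578) in the vehicle-treated VPA group. The difference of the vehicle-treated VPA group reached an unadjusted p under 0.05 with trended and robust moderation (adjusted p = 0.514), without moderation (adjusted p = 0.574) and with only probe sets over 6.6 (adjusted p = 0.307).

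Grin2d encodes GluN2D, a subunit of slow channels known from the diencephalon, brainstem and cortical interneurons of rodents. Its log2 levels were 6.19, 6.14 and 5.77 in OXT-treated VPA replicates 1, 2 and 3, 6.25, 6.01 and 5.67 in the vehicle-treated VPA replicates, and 5.76, 5.81 and 5.79 in the control replicates. Replicates 1 and 2 of both VPA groups lay over all controls and replicates 3 did not. The difference from control was 0.25 (SE 0.16, adjusted p = 0.818) in the OXT-treated VPA group and 0.19 (SE 0.16, adjusted p = 0.746) in the vehicle-treated VPA group. It reached an unadjusted p under 0.05, at 0.38 (adjusted p = 0.563) without OXT-treated VPA replicate 3 and at 0.34 (adjusted p = 0.603) without vehicle-treated VPA replicate 3. With array weights on all 9 arrays it also did, at 0.31 (adjusted p = 0.348) between OXT-treated VPA and control and at 0.29 (adjusted p = 0.261) with both VPA groups as 1 side.

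Grin3a encodes GluN3A and was the member with the largest difference in either comparison with control. Its log2 levels were 7.51, 7.57 and 7.22 in OXT-treated VPA replicates 1, 2 and 3, 7.30, 7.50 and 7.34 in the vehicle-treated VPA replicates, and 6.34, 6.51 and 6.69 in the control replicates. The lowest VPA array, at 7.22, lay over the highest control array, at 6.69. The difference from control was 0.92 (SE 0.13, 95% interval 0.63 to 1.21, adjusted p = 0.118), or 1.89-fold, in the OXT-treated VPA group. After vehicle it was 0.87 (SE 0.13, 95% interval 0.58 to 1.15, adjusted p = 0.134), or 1.82-fold, in the VPA rats. By unadjusted p it ranked 12 in the OXT-treated and 10 in the vehicle-treated VPA group among the 30429 probe sets. With the 6 VPA arrays as 1 side the difference was 0.89 (SE 0.11, adjusted p = 0.0680). These comparisons share the 3 control arrays.

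**Figure D1:**
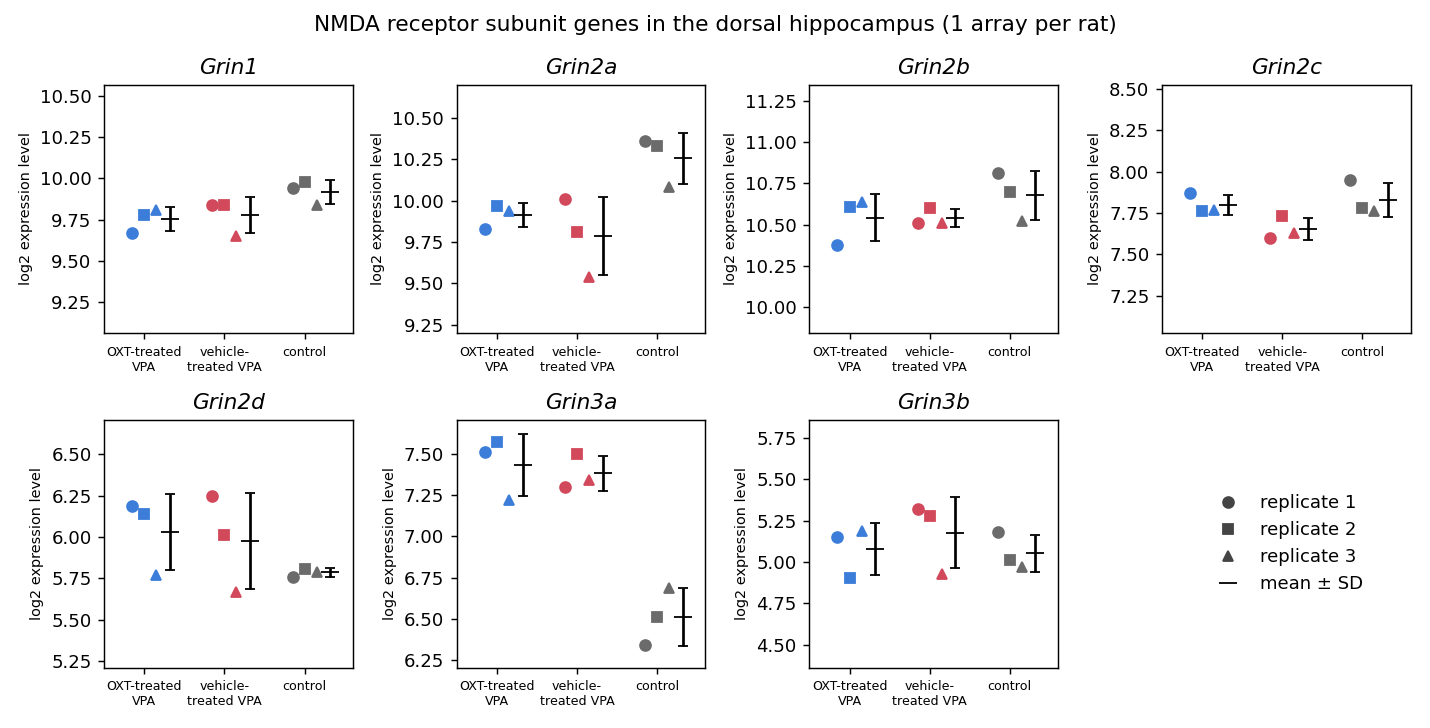
Log2 expression level of the 7 subunit genes on each array, in a panel per gene with a vertical axis of 1 common span, for OXT-treated VPA, vehicle-treated VPA and control rats. Symbols are replicates and bars are mean ± SD (n = 3), and the Grin3a arrays of both VPA groups (7.22 to 7.57) lie over those of control (6.34 to 6.69).

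The RefSeq promoter of Grin3a is shown because this gene carried the largest difference, beside that of Grin1, the partner subunit that did not pass the test. Of the 7 genes, 4 (Grin1, Grin2c, Grin2d and Grin3a) matched the table of promoter sequences. Each sequence holds the 250 bases before the annotated start in the assembly GRCr8, 5′ to 3′ on the gene's strand, which is the minus strand for both. Grin3a lies at chr5:69001559-69001808 and Grin1 at chr3:28528755-28529004. Capitals mark matches to the E-box CANNTG, which reads the same on both strands, and to the CRE half-site TGACG on either strand, and no match overlaps another.
Grin3a: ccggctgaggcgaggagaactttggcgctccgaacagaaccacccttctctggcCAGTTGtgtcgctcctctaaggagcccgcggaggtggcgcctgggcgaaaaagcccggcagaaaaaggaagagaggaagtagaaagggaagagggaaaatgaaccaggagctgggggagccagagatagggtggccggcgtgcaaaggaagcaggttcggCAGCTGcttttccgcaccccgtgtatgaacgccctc
Grin1: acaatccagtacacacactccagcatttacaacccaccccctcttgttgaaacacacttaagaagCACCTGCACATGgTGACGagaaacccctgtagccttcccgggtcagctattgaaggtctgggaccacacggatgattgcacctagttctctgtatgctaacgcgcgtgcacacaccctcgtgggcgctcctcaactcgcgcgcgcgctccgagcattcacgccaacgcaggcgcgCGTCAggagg
The Grin3a window held 2 E-boxes, 0 CRE half-sites, 16 CG pairs and 60.4% G or C. The Grin1 window held 2 E-boxes, 2 CRE half-sites, 19 CG pairs and 57.6% G or C. Both had more CG pairs than the median of 5 (quartiles 2 and 15) over all 33469 promoters of that length, whose median G or C content was 51.2%. An E-box was present in 65.5% of those promoters and a CRE half-site in 18.2%. The GC box GGGCGG, searched on both strands, was present in 30.5% and in none of the 4 windows of the family. These matches describe the letters of the windows only.

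Grin3b encodes GluN3B, known chiefly from motor neurons. Its log2 levels were 5.15, 4.90 and 5.19 in OXT-treated VPA replicates 1, 2 and 3, 5.32, 5.28 and 4.93 in the vehicle-treated VPA replicates, and 5.18, 5.01 and 4.97 in the control replicates. All values were under the median of the arrays and the 3 groups overlapped. The difference from control was 0.03 (SE 0.13, adjusted p = 0.993) in the OXT-treated VPA group and 0.12 (SE 0.13, adjusted p = 0.798) in the vehicle-treated VPA group.

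Counted over the family, 2 of 7 genes passed in each comparison with control, with Grin3a higher and Grin2a lower. Of all probe sets, 7.38% passed between OXT-treated VPA and control (3.87% higher, 3.51% lower), and 8.98% between vehicle-treated VPA and control (5% higher, 3.98% lower). The same 2 genes passed with the 6 VPA arrays as 1 side, beside 9.31% of all probe sets. The study's criteria (F test at an unadjusted p under 0.05, more than 1.5-fold, mean log2 over 6.6 in a group) were met by Grin3a alone in both comparisons, against 0.674% and 0.654% of all probe sets. The study set the fold for vehicle-treated VPA against control only, and its use for OXT-treated VPA against control is an extension made here. Grin3a met the level through the VPA groups alone, where it was high, as its control mean was 6.51. The F test over the 3 groups gave an unadjusted p under 0.05 for Grin3a (adjusted p = 0.180) and Grin2a (adjusted p = 0.524), as it did for 7.54% of all probe sets. The arrays of the groups did not overlap for 3 of 7 genes between OXT-treated VPA and control (Grin1, Grin2a and Grin3a), beside 12% of all probe sets. They did not overlap for 3 of 7 between vehicle-treated VPA and control (Grin2a, Grin2c and Grin3a), beside 13.6%. For Grin2a and Grin3a all 6 VPA arrays lay on the same side of the controls, beside 5.93% of all probe sets. The median difference of the 7 genes was -0.03 in the OXT-treated and -0.14 in the vehicle-treated VPA group, where the median of all probe sets was 0.01 in both.

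The comparison of the VPA groups with each other asks what OXT treatment did after VPA exposure. None of the 7 genes passed, where 4.66% of all probe sets did. For Grin3a the OXT-treated minus the vehicle-treated VPA level was 0.05 (SE 0.13, 95% interval -0.23 to 0.34), so a difference of the size seen against control lay outside the interval. For Grin2a it was 0.13 (SE 0.13, 95% interval -0.17 to 0.42). The interval of Grin2a still holds 0.34, the size of its difference between OXT-treated VPA and control. Grin2c was the only member whose arrays did not overlap between the VPA groups, at 0.15 (SE 0.08, 95% interval -0.04 to 0.34), beside 6.33% of all probe sets. The intervals of the other members ran from -0.22 to 0.17 for Grin1, from -0.23 to 0.24 for Grin2b, from -0.30 to 0.42 for Grin2d and from -0.39 to 0.20 for Grin3b. The adjusted p was over 0.99 for every member.

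**Figure D2:**
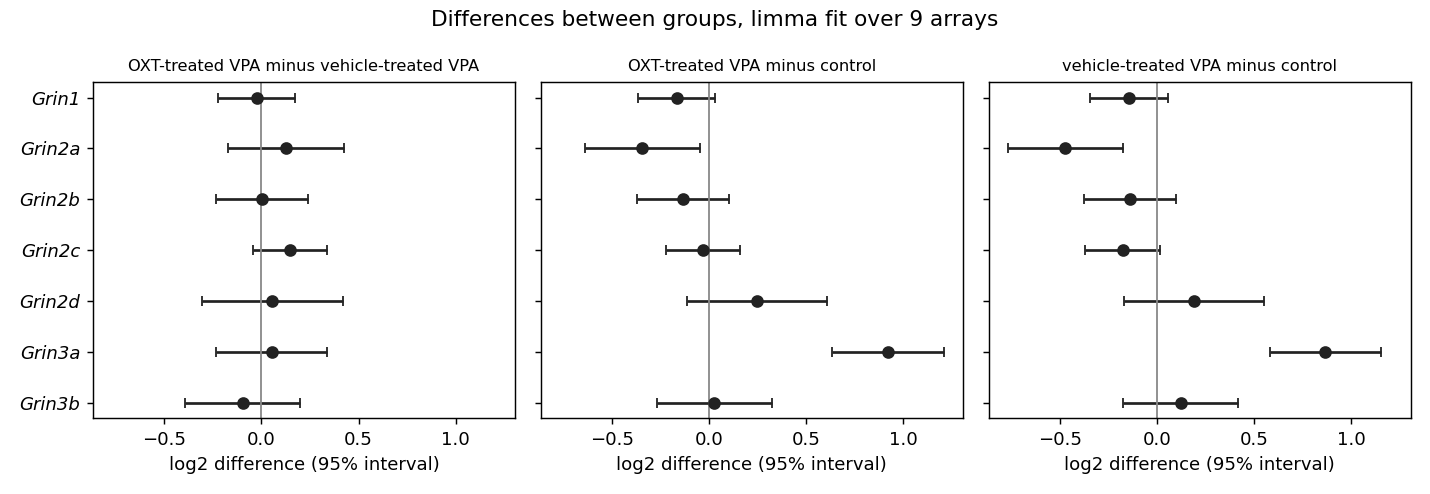
Log2 difference (horizontal axis) of each subunit gene with its 95% interval from limma over 9 arrays, in a panel each for OXT-treated VPA minus vehicle-treated VPA, OXT-treated VPA minus control and vehicle-treated VPA minus control. The Grin3a intervals against control (0.63 to 1.21 and 0.58 to 1.15) and those of Grin2a lie off 0, and every interval between the VPA groups covers 0.

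The balance between 2 subunit genes was read within each array as the difference of their log2 levels, set to 0 at the control mean, which removes any scaling shared by the array. Grin2b minus Grin2a was 0.13, 0.22 and 0.28 in OXT-treated VPA replicates 1, 2 and 3, 0.08, 0.37 and 0.55 in the vehicle-treated VPA replicates, and 0.03, -0.05 and 0.02 in the control replicates. All 6 VPA arrays lay over the highest control array. The mean difference was 0.21 (SE 0.05) between OXT-treated VPA and control and 0.33 (SE 0.14) between vehicle-treated VPA and control, each at p = 0.1, the smallest that an exact two-sided permutation test of 3 against 3 arrays can give. With the 6 VPA arrays as 1 side it was 0.27 (SE 0.07), at an exact permutation p = 0.0238, again the smallest possible, and p = 0.0952 adjusted over the 8 tests of this kind. The Grin2a levels enter this ratio, so it is not independent of the difference of that gene.

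Grin3a minus Grin1 was 1.25, 1.20 and 0.82 in OXT-treated VPA replicates 1, 2 and 3, 0.87, 1.07 and 1.10 in the vehicle-treated VPA replicates, and -0.19, -0.06 and 0.26 in the control replicates. All 6 VPA arrays lay over the highest control array. The Grin3a levels, already apart from control, enter this ratio, so it is not independent of the difference of that gene. The gap between the Grin3a arrays of VPA and control was wider than the range of Grin1 over all arrays. The separation of the ratio was therefore fixed in advance. The mean difference was 1.09 (SE 0.19) between OXT-treated VPA and control and 1.01 (SE 0.15) between vehicle-treated VPA and control. Each came at p = 0.1 by the exact permutation test, the smallest possible, which adds nothing to the Grin3a levels. Between the OXT-treated and vehicle-treated VPA groups the mean difference was 0.08 (SE 0.15, exact permutation p = 0.6), and for Grin2b minus Grin2a it was -0.12 (SE 0.14, exact permutation p = 0.5).

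**Figure D3:**
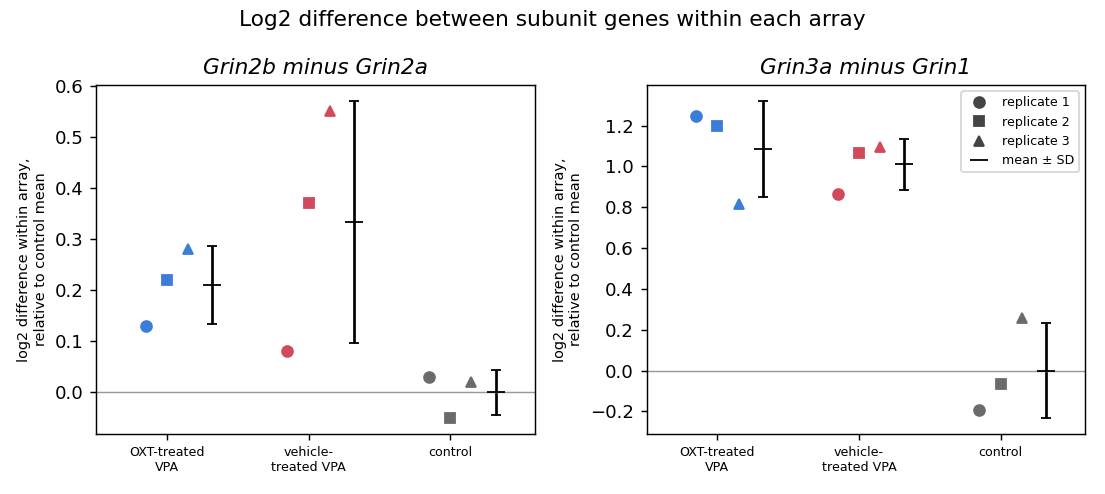
Log2 difference between 2 subunit genes within each array (vertical axis), relative to the control mean, for Grin2b minus Grin2a and for Grin3a minus Grin1 in OXT-treated VPA, vehicle-treated VPA and control rats. Symbols are replicates and bars are mean ± SD (n = 3), and in both panels the 6 VPA arrays lie over the 3 control arrays.

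Markers of other tissue were set beside the members. Slc17a6, the vesicular glutamate transporter of thalamic neurons, had log2 levels of 9.37, 9.34 and 7.71 in OXT-treated VPA replicates 1, 2 and 3, 8.99, 8.86 and 7.67 in the vehicle-treated VPA replicates, and 6.77, 6.09 and 6.10 in the control replicates. It was highest in the same 4 arrays as Grin2d, and in replicates 3 of the VPA groups it was still over control. Of the 11 thalamus markers, 3 were higher and 1 lower at an unadjusted p under 0.05 between OXT-treated VPA and control. Of all probe sets, 3.87% were higher and 3.51% lower. Between vehicle-treated VPA and control 2 of the markers were higher and 1 lower, beside 5% and 3.98% of all probe sets. The summed linear level of the 11 markers was 1098 to 3615 in the OXT-treated VPA group, 953 to 2914 in the vehicle-treated VPA group and 987 to 1251 in control.

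An added comparison, chosen after the marker levels were seen, set only replicates 3 of the VPA groups (2 arrays) against the 3 control arrays. Grin3a was then higher by 0.77 (SE 0.13, adjusted p = 0.264) and Grin2a differed by -0.52 (SE 0.16, adjusted p = 0.425), where 9.91% of all probe sets passed. Grin2d differed by -0.07 (SE 0.08, adjusted p = 0.792), against 0.22 (SE 0.14, adjusted p = 0.689) with all 6 VPA arrays. These 2 arrays, 1 from each VPA group, were picked by their markers after the levels of the members were known. The values of all 3 genes therefore only restate those levels, and Slc17a6 was over control in both arrays. The part of thalamic tissue in the difference of any of the 3 genes was not tested.

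**Figure D4:**
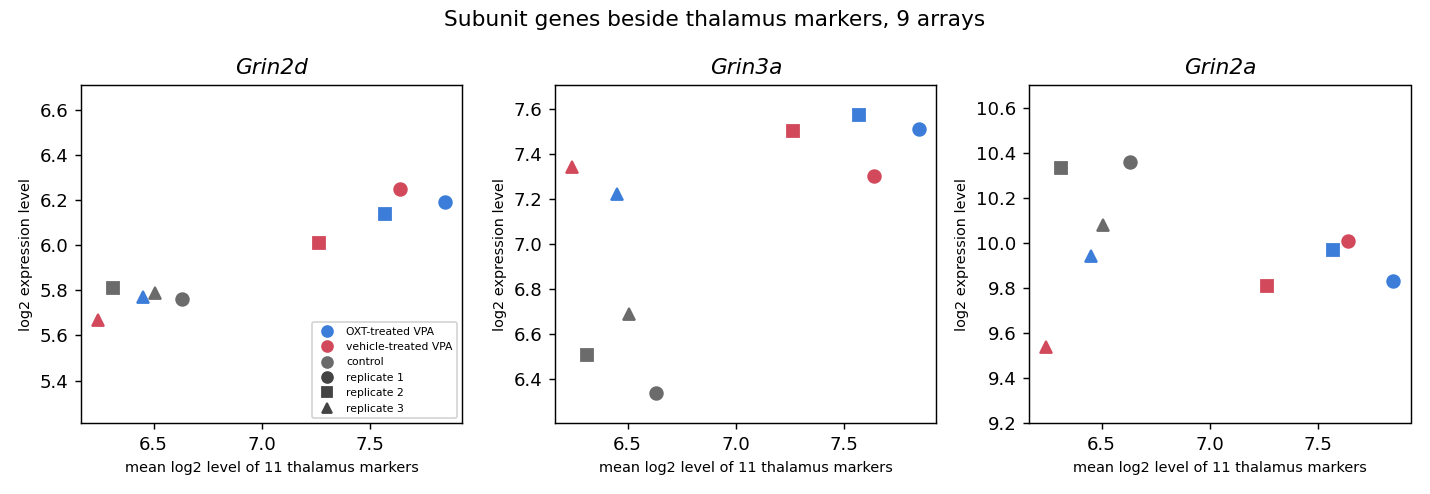
Log2 level of Grin2d, Grin3a and Grin2a (vertical axes) against the mean log2 level of 11 thalamus markers (horizontal axis) on 9 arrays, colored by group with a symbol per replicate. Thalamus means run from 6.45 to 7.85 in OXT-treated VPA, from 6.25 to 7.64 in vehicle-treated VPA and from 6.31 to 6.63 in control rats.

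Other marker lists also differed between the VPA groups and control. Markers counted as higher or lower here are those at an unadjusted p under 0.05. Of all probe sets, 3.87% were higher and 3.51% lower in this way between OXT-treated VPA and control. Between vehicle-treated VPA and control, 5% were higher and 3.98% lower. Markers outside these counts can still differ in mean, so the median difference of each list from control is given. The ventral hippocampus is a region that the dissected dorsal part should leave out. Its 6 markers had log2 means of 7.22 to 7.51 in OXT-treated VPA, 7.13 to 7.38 in vehicle-treated VPA and 6.46 to 6.85 in control. In each VPA group 4 of the 6 were counted as higher than in control. The median difference of the list was 0.63 after OXT and 0.79 after vehicle. That list separated the VPA arrays from control as Grin3a did, and its part in the Grin3a difference was not tested. Of 6 endothelial markers, 4 were counted as higher in the OXT-treated and 3 in the vehicle-treated VPA group. Their means were 7.81 to 7.94 in OXT-treated VPA, 7.72 to 7.90 in vehicle-treated VPA and 7.50 to 7.57 in control rats. The median difference was 0.34 after OXT and 0.26 after vehicle. The 7 oligodendrocyte markers had means of 9.59 to 10.32 in OXT-treated VPA, 9.50 to 10.36 in vehicle-treated VPA and 10.39 to 10.92 in control rats. In each VPA group 1 was counted as lower, while the median difference of the list was -0.53 after OXT and -0.49 after vehicle. The 8 principal cell markers of the hippocampus had means of 8.19 to 8.39 in OXT-treated VPA, 7.91 to 8.40 in vehicle-treated VPA and 8.24 to 8.58 in control. Of them, 2 were counted as lower in the OXT-treated and 1 in the vehicle-treated VPA group. The median difference of the list was -0.16 after OXT and -0.32 after vehicle. Both this list and Grin2a were lowest in vehicle-treated VPA replicate 3, and the part of cell composition in the Grin2a difference was not tested. The 9 interneuron markers had overlapping means, of 7.70 to 7.93 in OXT-treated VPA, 7.84 to 8.07 in vehicle-treated VPA and 7.85 to 7.96 in control rats. Single markers differed in both directions, with 1 counted as higher and 2 as lower after OXT, and 1 as higher and 0 as lower after vehicle. The median difference of the list was -0.01 after OXT and -0.03 after vehicle.

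Genes that work with the receptor were read from 6 lists by role, with 81 of 93 listed genes measured under a single symbol. The lists were chosen with earlier results of these data known, so their shares are a description and not a test. Between OXT-treated VPA and control, 5 were higher and 13 lower (22.2% passed, beside 7.38% of all probe sets). Between vehicle-treated VPA and control, 4 were higher and 15 lower (23.5% passed, beside 8.98% of all probe sets). Between the OXT-treated and vehicle-treated VPA groups, 1 was higher and 1 lower (2.47% passed), beside 1.86% higher and 2.81% lower among all probe sets. The median difference of the 81 genes was -0.06 between OXT-treated VPA and control, -0.09 between vehicle-treated VPA and control and -0.01 between the VPA groups, where all measured genes had medians of 0.00, -0.01 and 0.02 in that order. No gene of these lists passed at an adjusted p under 0.05. The shares of all probe sets include those of low level. In a fit of only the 11473 probe sets over 6.6, 1484 passed between OXT-treated VPA and control. Between vehicle-treated VPA and control 1733 did. Both are larger shares than among all probe sets. Differences from control were negative for 53.4% of the 11473 after OXT and for 57.6% after vehicle. The lists were not compared with genes of similar level.

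Among the 6 lists, the calcium signal downstream of the receptor had the largest share of genes that passed in both comparisons with control. Of 13 measured genes, 2 were higher and 4 lower in OXT-treated VPA rats, and 2 were higher and 5 lower in vehicle-treated VPA rats, than in control. These are 46.2% and 53.8% of the list, which was chosen with earlier results of these data known, beside 7.38% and 8.98% of all probe sets. Rasgrp1, a calcium- and diacylglycerol-regulated activator of Ras, had log2 levels of 10.64, 10.69 and 10.91 in OXT-treated VPA, 10.75, 10.76 and 10.68 in the vehicle-treated VPA and 11.16, 11.19 and 11.08 in the control replicates. The arrays of neither VPA group overlapped with control, at -0.40 (SE 0.09, adjusted p = 0.233) after OXT and -0.41 (SE 0.09, adjusted p = 0.209) after vehicle. Rasgrf2, a calmodulin-regulated activator of Ras, differed by -0.59 (SE 0.12, adjusted p = 0.187) in OXT-treated VPA and by -0.47 (SE 0.12, adjusted p = 0.288) in vehicle-treated VPA rats. Camk4, a calcium- and calmodulin-dependent kinase of the nucleus, differed by -0.49 (SE 0.14, adjusted p = 0.419) in OXT-treated VPA and by -0.52 (SE 0.14, adjusted p = 0.312) in vehicle-treated VPA rats. Adcy8, a calcium-stimulated adenylyl cyclase, went the other way. It stood at log2 levels of 7.61, 7.70 and 7.13 in OXT-treated VPA, 7.51, 7.67 and 7.41 in the vehicle-treated VPA and 7.08, 6.81 and 6.82 in the control replicates. Its difference was 0.58 (SE 0.16, adjusted p = 0.385) after OXT and 0.63 (SE 0.16, adjusted p = 0.269) after vehicle. Of the 8 markers of hippocampal principal cells, 2 were also lower at an unadjusted p under 0.05 in the OXT-treated VPA group. In the vehicle-treated VPA group 1 was. Of all probe sets, 3.51% and 3.98% were lower in that order. The median difference of that list was -0.16 after OXT and -0.32 after vehicle, and the part of these cells in the differences above was not tested.

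Of 18 measured kinases and phosphatases that act on the receptor, 2 were higher and 4 lower in OXT-treated VPA rats, and 2 were higher and 3 lower in vehicle-treated VPA rats (33.3% and 27.8% of the list, beside 7.38% and 8.98% of all probe sets). Prkca, protein kinase C alpha, had log2 levels of 9.66, 9.78 and 9.63 in OXT-treated VPA, 9.88, 9.86 and 9.45 in the vehicle-treated VPA and 10.30, 10.41 and 10.57 in the control replicates. The 6 VPA arrays lay under all controls, at -0.74 (SE 0.13, adjusted p = 0.142) after OXT and -0.70 (SE 0.13, adjusted p = 0.134) after vehicle. Between vehicle-treated VPA and control, Ptk2b, the calcium-activated tyrosine kinase Pyk2, differed by -0.37 (SE 0.10, adjusted p = 0.307), and Ppp3ca, a catalytic subunit of calcineurin, by -0.28 (SE 0.09, adjusted p = 0.393). Camk2g, the gamma subunit of CaMKII, was higher by 0.29 (SE 0.09, adjusted p = 0.473) in OXT-treated VPA and by 0.35 (SE 0.09, adjusted p = 0.285) in vehicle-treated VPA rats.

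Of 16 postsynaptic scaffold genes, 0 were higher and 2 lower in OXT-treated VPA rats, and 0 were higher and 4 lower in vehicle-treated VPA rats, beside 7.38% and 8.98% of all probe sets. Dlgap2, a scaffold protein that binds PSD-95, had log2 levels of 7.74, 7.71 and 7.85 in OXT-treated VPA, 7.93, 7.94 and 7.74 in the vehicle-treated VPA and 8.22, 8.27 and 8.32 in the control replicates. Its 6 VPA arrays lay under all controls, at -0.50 (SE 0.09, adjusted p = 0.142) after OXT and -0.40 (SE 0.09, adjusted p = 0.198) after vehicle. Homer3, Shank2 and Lin7c, which join or order the scaffold, differed by -0.30 (adjusted p = 0.370), -0.21 (adjusted p = 0.491) and -0.27 (adjusted p = 0.521) between vehicle-treated VPA and control. Of 12 genes of transport, surface partners and endocytosis, 0 were higher and 2 lower in each VPA group. That is 16.7% of the list in both, beside 7.38% and 8.98% of all probe sets. Of the 11473 probe sets over 6.6, 1484 and 1733 passed in the same order, which are larger shares than those of all probe sets. The lower genes of transport included Neto1, an auxiliary protein of glutamate receptors, at -0.71 (SE 0.19, adjusted p = 0.385) after OXT and -0.56 (SE 0.19, adjusted p = 0.444) after vehicle.

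The 2 genes that passed between the VPA groups belong to the supply of co-agonists and to the kynurenine pathway. Psat1 makes a precursor of serine, from which D-serine is formed, and had log2 levels of 10.26, 10.31 and 10.21 in OXT-treated VPA, 10, 10 and 9.73 in the vehicle-treated VPA and 10.27, 10.20 and 10.70 in the control replicates. The OXT-treated arrays lay over the vehicle-treated ones and among the controls. The difference was 0.35 (SE 0.14, adjusted p over 0.99) between the OXT-treated and vehicle-treated VPA groups and -0.48 (SE 0.14, adjusted p = 0.344) between vehicle-treated VPA and control. Choroid plexus markers also differed at an unadjusted p under 0.05. Of the 14, 11 were higher between the OXT-treated and vehicle-treated VPA groups, beside 1.86% of all probe sets. Between vehicle-treated VPA and control 12 were lower, beside 3.98% of all probe sets. OXT-treated VPA replicate 3 had a choroid plexus mean of 6.06, where the vehicle-treated VPA range was 5.76 to 6.46, and a Psat1 level of 10.21. That is 1 array, which decides nothing, and the part of choroid plexus tissue in the Psat1 difference was not tested. Aadat, an enzyme that forms kynurenic acid, an antagonist at the glycine site of the receptor, had log2 levels of 5.57, 5.92 and 5.91 in OXT-treated VPA, 6.20, 6.11 and 6.50 in the vehicle-treated VPA and 6.03, 6.47 and 6.68 in the control replicates. It differed by -0.47 (SE 0.18) between OXT-treated and vehicle-treated VPA rats, at levels under 6.6 in every group mean. With 2 of 81 genes, the share that passed between the VPA groups was under that of all probe sets.

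**Figure D5:**
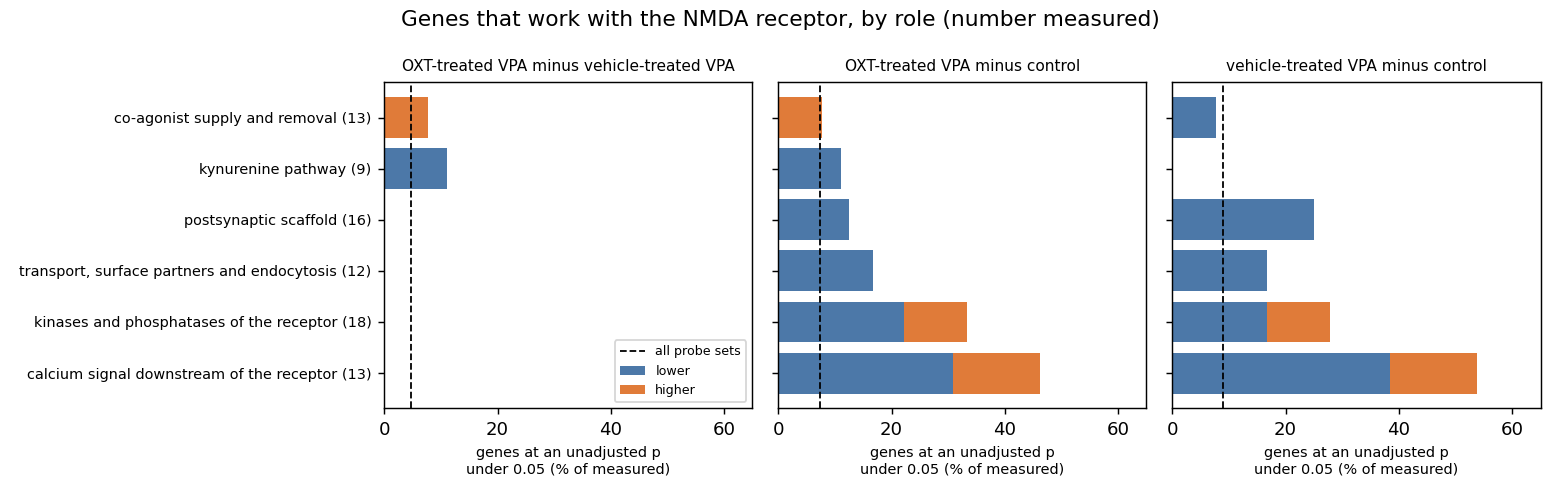
Share of the measured genes of each role that passed at an unadjusted p under 0.05 (horizontal axis, percent), lower and higher genes stacked, in a panel each for OXT-treated VPA minus vehicle-treated VPA, OXT-treated VPA minus control and vehicle-treated VPA minus control. The dashed line is the share of all probe sets (4.66%, 7.38% and 8.98%), and the calcium signal list reaches 46.2% and 53.8% in the comparisons with control. The line includes probe sets of low level, and a larger share passed in the comparisons with control among those over 6.6. The lists were chosen with earlier results of these data known.

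The genes most like each member were taken by Pearson's r of log2 levels over the 9 arrays among 8606 genes over 6.6, as a description, since all points share the 3 groups and the marker differences above. Grin3a was closest to Cmbl (r = 0.983), Dner (r = 0.976) and Nr1d1 (r = 0.968). Grin2a was closest to Pex16 (r = 0.969), Cnih2 (r = 0.967) and Rbfox3 (r = 0.958), of which Cnih2 encodes an auxiliary protein of AMPA receptors and Rbfox3 the neuronal nuclear protein NeuN. Grin1 was closest to Celf3 (r = 0.979), Sorl1 (r = 0.975) and Adgrb2 (r = 0.970). Grin2b was closest to Sh3rf1 (r = 0.960), Ddn (r = 0.956) and Htr1a (r = 0.954), of which Ddn encodes dendrin, a dendritic protein, and Htr1a a serotonin receptor. Grin2c was closest to Abhd2 (r = 0.968), and Grin3b to Rab31, Shc1 and Syngr1, the third of them at r = 0.884. Grin2d was closest to Plekha6 (r = 0.983) and Rgs16 (r = 0.972), and Rgs16 is 1 of the 11 thalamus markers.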

How the data were processed

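Dorsal hippocampal RNA was hybridized to Rat Gene 2.0 ST arrays, 1 per rat, from 3 OXT-treated VPA, 3 vehicle-treated VPA and 3 control rats. The log2 values were deposited by the authors after normalization and summarization with Transcriptome Analysis Console 4.0 and Affymetrix Expression Console. The summarization method, genome build and annotation are not given in the sources used here. The values were used as deposited, rounded to 2 decimals, with 1 quantity per probe set. Of 30429 probe sets, 18511 carried 1 gene symbol, 575 several and 11343 none in the platform annotation, and 18394 matched a RefSeq gene of GRCr8.

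Group means were fitted to every probe set with limma 3.58.1 (R 4.3.3) and empirical Bayes moderation, with Benjamini-Hochberg adjustment of p over all probe sets. The fit was tested on simulated data. Differences within arrays were tested by exact two-sided permutation (scipy 1.17.1). Precision is limited by 3 arrays per group. Of each list the text names up to 4 genes with the smallest p between vehicle-treated VPA and control and up to 2 between the VPA groups, among those at an unadjusted p under 0.05. The members and lists were chosen with earlier results of these data known. Alternatives were other normalizations, moderation, array weights, filters, the replicate number as a block and leaving out each array. Replicate numbers do not pair the rats in the sources. Listed genes without a probe set of a single symbol, among them Camk2a and Homer1, were not analysed here. Promoters came from RefSeq (GRCr8).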

Additional observations from a re-analysis of the deposited data

How the results depend on the processing

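Grin3a passed at an unadjusted p under 0.05 in 18 of 18 alternatives in each comparison with control, with differences from 0.83 to 1.03 between OXT-treated VPA and control and from 0.78 to 0.96 between vehicle-treated VPA and control. Its adjusted p ran from 0.0240 to 0.383 and from 0.0298 to 0.373 in the same order. It was under 0.05 with trended and robust moderation and, after OXT, with array weights. The filter on level also gave values under 0.05, but Grin3a passed that filter through the VPA groups alone, so they are no support. These settings called many probe sets at an adjusted p under 0.05, where the main fit called 0. Trended and robust moderation called 107 and 80 in the same order, and the filter 163 and 140 of 11473. Array weights called 34 after OXT. Grin2a passed in 14 of 18 between OXT-treated VPA and control and in 18 of 18 between vehicle-treated VPA and control. The 18 alternatives are not separate checks. Each member had 1 probe set, so the mean of its probe sets repeated the main fit. Leaving out an array of a group outside the comparison kept the difference and changed only the estimate of its spread. Over the 7 genes, 0 passed at an adjusted p and 1 met the study's criteria in each comparison with control, in place of 2. With array weights 4 (Grin1, Grin2a, Grin2d and Grin3a) passed between OXT-treated VPA and control and between both VPA groups and control. The weights also raised the calls among all 30429 probe sets, to 3447 and 3918 in that order from 2246 and 2834. Leaving out each array gave 1 to 2 genes between OXT-treated VPA and control and 1 to 2 in the F test. Of all probe sets, 1711 to 2739 then passed between OXT-treated VPA and control.

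Differences near 0 turned in sign, and the cause was not tested. Between the OXT-treated and vehicle-treated VPA groups, Grin2b was -0.018 with quantile normalization, -0.01 with median centring and -0.021 with array weights. Grin3b between OXT-treated VPA and control was -0.0048 with quantile normalization and -0.038 with array weights. Grin2d, which was not near 0 at 0.22 with all VPA arrays, was -0.067 with replicates 3 as the only VPA arrays. Those arrays were picked with the levels known, and in them Grin2d did not lie over all controls. Leaving out each array, the difference between the VPA groups ran from -0.087 to 0.018 for Grin1, from -0.045 to 0.085 for Grin2b, from -0.10 to 0.19 for Grin2d, from -0.015 to 0.16 for Grin3a and from -0.0033 to 0.21 for Grin3a minus Grin1. Between OXT-treated VPA and control it ran from -0.065 to 0.03 for Grin2c and from -0.028 to 0.12 for Grin3b. Between both VPA groups and control, Grin2b minus Grin2a ran from 0.22 to 0.31 and Grin3a minus Grin1 from 0.95 to 1.18, and without a control array the exact test cannot reach p under 0.05.

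Same-numbered arrays of different groups had correlations of -0.21 to 0.10 in their deviations from the group means, so the rats were treated as unpaired. With the replicate block, 2 genes passed between OXT-treated VPA and control, 0 between the VPA groups and 2 between vehicle-treated VPA and control, as without it. Of all 30429 probe sets, 2098, 1353 and 2539 passed with the block in that order. The comparison of both VPA groups with control uses all groups, so a fit of only the groups compared was not run for it.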
